A study of Homo sapiens with 8 samples.

Results

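A set of 85 genes was nearly silent in control HEK293 cells and detected in every library of cells labelled TIP60 knock-out (KO). They were chosen by their counts alone, as genes with a summed count of 3 or less over the 4 control libraries and 5 or more counts in each of the 4 KO libraries. Of 27936 genes with a gene ID, 98 (0.351%) met both limits. The 85 described here remained after 13 were left out by symbol, among them potassium channel, myosin heavy chain and double homeobox genes, 3 LINC transcripts, FOXJ1, ZSCAN4 and SLC34A2. Since the KO and control counts chose the genes, their difference between the arms is given as a description with no test.

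HEK293 is a transformed cell line that came from the kidney of a human embryo. The 4 KO libraries carry the genotype label HEKg1/C9 and the 4 control libraries HEKg1, and each arm holds 2 libraries of sgRNA1 and 2 of sgRNA2. All 8 had received doxycycline at 1 µg/ml for 3 days, which switched on the guide RNAs. The C9 component is not explained in the labels, the targets of the control guides are not given, and an effect of C9 itself cannot be told apart from loss of TIP60. Whether replicates came from separate cultures is not in the labels, so the p-values below measure only the spread between these libraries.

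TIP60, the product of KAT5, puts acetyl groups on lysines. It works in a large chromatin complex that modifies histones H4 and H2A, exchanges H2A for the variant H2A.Z, and takes part in transcription and in the repair of DNA breaks. A differentiated cell transcribes only part of its genes, and tissue-restricted genes such as those of neurons, photoreceptors or motile cilia are usually kept silent elsewhere by their chromatin and by the lack of their activating factors. HEK293 cells are known for an unusual profile in which several neural genes are active although the line came from kidney.

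Libraries held 13325415 to 18841774 counts in the KO arm and 3723992 to 14601552 in the control arm, so the KO arm had 1.48 times the counts of the control arm. KAT5 itself had 18.8 ± 0.964 CPM (read counts divided by the TMM-scaled library size and not by gene length; SD, n = 4) in KO and 46.8 ± 2.12 CPM in control libraries. PAX2, a transcription factor of the kidney lineage, had 0.901 ± 0.258 CPM in KO and 0.706 ± 0.425 CPM in control libraries. UMOD, the defining protein of the thick ascending limb, was listed at 0 in all 8 libraries.

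All 85 genes had few reads in KO cells too. Their mean KO level ran from 0.36 to 2.88 CPM with a median of 0.649 CPM, whereas the median of the 14455 genes that passed the filter on low counts was 28.9 CPM. Summed KO counts per gene ran from 23 to 183 with a median of 42. In the control arm 12 genes had no count in any library, 19 had 1 count in all, 22 had 2 and 32 had 3. Because these RNAs come from bulk cultures, a few cells with much of a transcript and many cells with little of it cannot be told apart.

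Summed over the 85 genes, the KO libraries held 65.6 and 77.5 CPM with sgRNA1 and 67.2 and 59.8 CPM with sgRNA2, against 3.23 and 2.96 CPM in the control libraries with sgRNA1 and 4.83 and 3.09 CPM in those with sgRNA2. The arms did not overlap, and libraries of an arm lay close to each other. Over all libraries the genes had 4357 counts in KO and 159 in control libraries, a CPM ratio of 18.1. For the 73 genes with a control count, the ratio ran from 5.29 to 91.3 with a median of 14.2. For the 12 without one, the KO level was at least 5.51-fold to at least 19.8-fold higher, taking a floor of 3 counts over the control group, which is 0.0699 CPM. These bounds, also where given for single genes below, leave out the counting error of the KO counts. The lowest KO value lay above the highest control value in CPM for 85 of 85 genes, beside the 0.351% of genes that met both limits, and nothing is read from this since the same counts chose the genes.

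**Figure D1:**
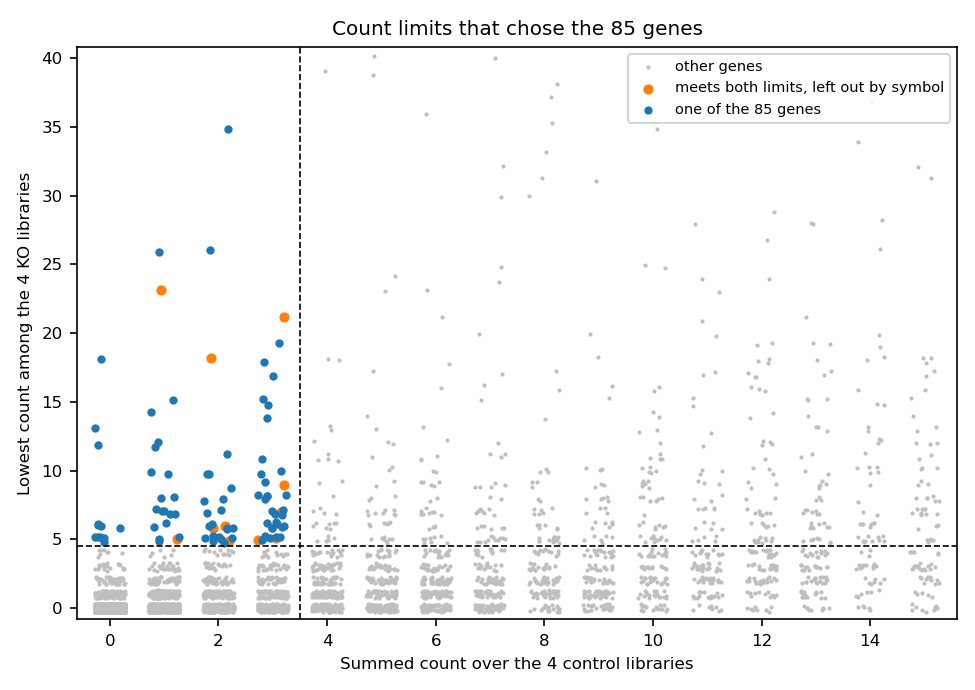
Summed count over the 4 control libraries (x axis) against the lowest count among the 4 KO libraries (y axis), 1 point per gene with a small random offset, cropped at 15 control and 40 KO counts. Dashed lines are the limits of 3 control counts and 5 KO counts, and the 85 genes fill the upper left corner next to 13 genes left out by symbol.

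The limits cut through a continuous cloud of genes. At the control limit of 3 counts stood 32 of the genes, among them DNALI1, MISP and ELAVL3, and 25 genes lay just outside it with 4 control counts. Of those, LRRC15 had 81, 65, 81 and 66 KO counts and 2, 1, 1 and 0 control counts, in the order sgRNA1 replicates 1 and 2, then sgRNA2 replicates 1 and 2, which is kept for all lists of counts below. At the KO limit of 5 counts stood 21 of the genes, among them OASL, ARL14EPL and SOST, and 40 genes lay just outside it with a lowest KO count of 4. HAVCR1, a kidney injury marker, was of these, with 32, 11, 26 and 4 KO counts and no control count.

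The same limits with the arms exchanged found no gene at all. No gene outside the symbols left out had a summed KO count of 3 or less and 5 or more counts in each control library. The count was also 0 when the shallowest control library was left out of the exchanged limit, and 0 on counts thinned to the depth of that library. On thinned counts the rule in its own direction found 45 genes, 4 of them among the 85. A thinned count of 5 stands for a higher level, and the others of the 45 were genes with more than 3 control counts at full depth.

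Protein-coding genes made up 73 of the 85 (85.9%), against 68.6% of all genes and 43.1% of the 11511 genes with a summed control count of 3 or less. Among the 4957 coding genes of that silent pool 1.47% were chosen, and among its 2847 long non-coding RNA genes 0.246%. The rest of the set were 7 long non-coding RNAs (8.24%), 3 transcribed pseudogenes, 1 transfer RNA gene and 1 entry, GeneID 105372478, that the RefSeq annotation did not name. Most of the silent pool stayed silent: 6965 of its genes had no KO count either, and 941 had a count in every KO library. The median gene length in the tables was 3013 bases for the 85 genes, 2475 for all genes and 3703 for the genes past the filter, and counts rather than levels per length chose the set.

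The rule had left out several gene families by symbol, which bears on how many families the set could hold. No 2 of the 82 named symbols outside the LOC entries shared the letters before their first digit, a match that misses relatives such as DNAI1 and DNALI1 or LRRN3 and LRRTM3. The genes of the set, LOC entries included and GeneID 105372478 without a position, lay on 20 chromosomes. Of them, 10 were on chromosome 1, 8 on chromosome 5, 7 each on 17 and 19, and 6 each on 2, 11 and 16. No run of them within 500 kb (500000 bases) existed. On GRCh38.p14 the leading coding genes were PTPN5 at chr11:18727928-18792721, KLF18 at chr1:44137821-44141631 and DNALI1 at chr1:37556940-37566857. The closest pair, ANKRD35 and the transfer RNA gene TRN-GTT2-7, had starts 578798 bases apart on chromosome 1. The next, ELAVL3 and ICAM1 on chromosome 19, had starts 1180206 bases apart.

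Grouped by what their products are known for, the genes spread over unrelated tissues. This grouping was made by hand after the genes were known, so it carries no test. Neural signalling and wiring took 22 genes, epithelial, gut, liver, kidney and placental functions 14, sensory transduction 7, immune and inflammatory functions 6, germline and early embryo 6, axoneme and cilium 5, and muscle, bone and limb 5. Another 8 coding genes fitted none of these, and 12 were non-coding, pseudogene, transfer RNA or unnamed entries. The CPM ratio of summed counts, KO over control, lay between 11.5 for the sensory genes (exact 95% counting interval 6.59 to 21.9) and 23.5 for the non-coding entries (15.1 to 38.7), so the intervals of the lowest and highest group overlapped. These intervals cover counting error only.

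**Figure D2:**
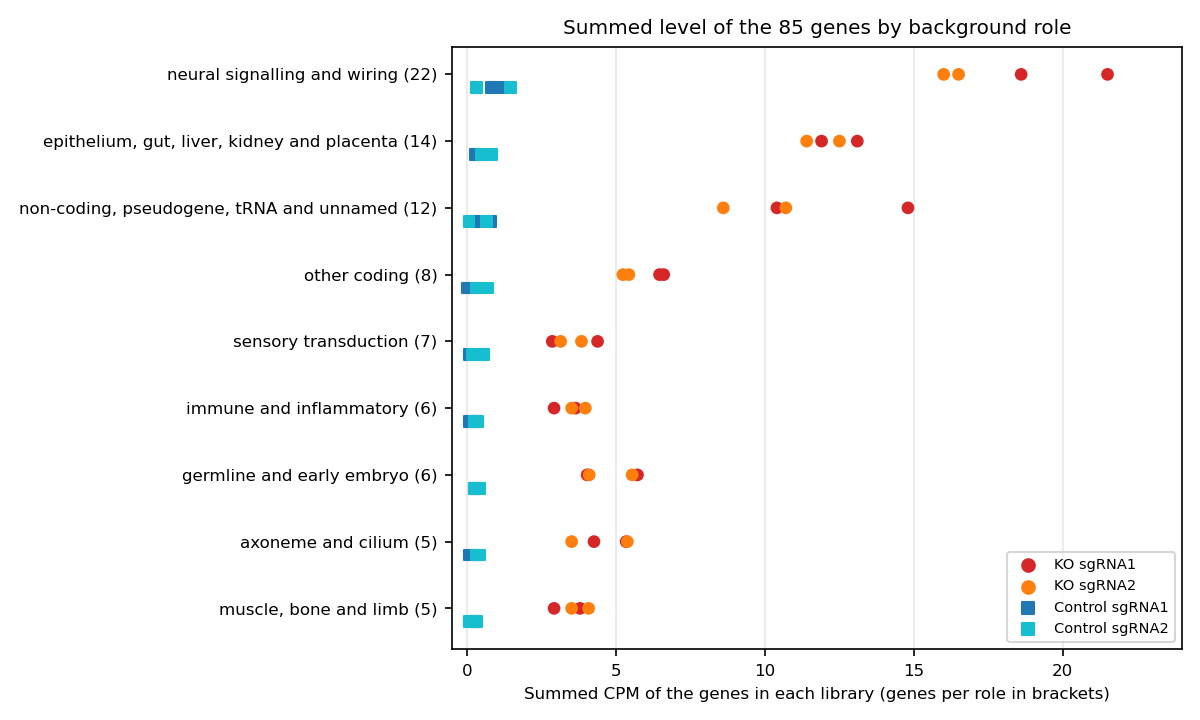
Summed CPM of the genes of each background role in each library (x axis, roles down the page with the number of genes in brackets). Circles are the 4 KO libraries and squares below them the 4 control libraries; every KO circle lies right of every control square, from 2.86 CPM for the sensory genes in the lowest KO library to 21.5 CPM for the neural genes in the highest.

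Promoter sequences, the 250 bases before the RefSeq gene start in GRCh38.p14, were available for 59 of the 85 genes (69.4%), too few to compare a sequence property over the set. Sequences of 5 are shown because they head their role or carry a known element: the coding gene with the most reads, the early embryo gene, a protease, a muscle gene and a ciliary gene. Motifs were searched on both strands in all 27305 windows of the same length. Capitals mark TGANTCA, the AP-1 element (in 6.6% of all windows), TATAAA, the TATA box (11.1%), and GTTGCCA or its complement TGGCAAC, a partial site of ciliary RFX factors (3.49%); TGACGTCA (1.77%) and the forkhead motif GTAAACA (2.98%) were also searched and are not in these 5. No searched motif overlaps another here. Over the 59 windows of the set, the AP-1 letters were in 4, the TATA letters in 5 and the RFX letters in 5. TGACGTCA and GTAAACA were in 1 each. AKR1C1, ALPP and MISP, grouped with the epithelial and organ genes, held the RFX letters as RSPH9 did, and MAGEB6 also held the AP-1 letters. A match is a description of letters and not evidence that a factor binds, and sequences are given 5′ to 3′ on the strand of the gene.
PTPN5, chr11:18792722-18792971, minus strand, no match: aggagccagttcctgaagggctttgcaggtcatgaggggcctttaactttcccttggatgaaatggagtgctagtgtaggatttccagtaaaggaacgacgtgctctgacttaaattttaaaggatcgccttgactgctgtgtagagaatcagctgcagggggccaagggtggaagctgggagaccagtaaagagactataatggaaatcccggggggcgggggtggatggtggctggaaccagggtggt
KLF18, chr1:44141632-44141881, minus strand, no match: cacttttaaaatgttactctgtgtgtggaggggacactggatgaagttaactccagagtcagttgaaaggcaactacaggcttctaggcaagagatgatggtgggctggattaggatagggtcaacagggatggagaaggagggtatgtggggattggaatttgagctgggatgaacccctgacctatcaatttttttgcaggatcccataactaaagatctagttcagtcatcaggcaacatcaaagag
MMP10, chr11:102780629-102780878, minus strand: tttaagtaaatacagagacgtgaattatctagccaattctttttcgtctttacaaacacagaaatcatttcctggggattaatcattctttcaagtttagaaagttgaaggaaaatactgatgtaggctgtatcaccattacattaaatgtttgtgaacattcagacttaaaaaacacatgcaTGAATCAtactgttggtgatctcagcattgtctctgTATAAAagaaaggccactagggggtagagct
XIRP1, chr3:39192596-39192845, minus strand: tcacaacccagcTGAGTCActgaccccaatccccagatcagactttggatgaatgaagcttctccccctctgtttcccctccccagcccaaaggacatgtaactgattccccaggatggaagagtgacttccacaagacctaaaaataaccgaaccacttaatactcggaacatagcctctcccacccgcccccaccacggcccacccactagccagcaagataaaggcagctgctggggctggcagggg
RSPH9, chr6:43644786-43645035, plus strand: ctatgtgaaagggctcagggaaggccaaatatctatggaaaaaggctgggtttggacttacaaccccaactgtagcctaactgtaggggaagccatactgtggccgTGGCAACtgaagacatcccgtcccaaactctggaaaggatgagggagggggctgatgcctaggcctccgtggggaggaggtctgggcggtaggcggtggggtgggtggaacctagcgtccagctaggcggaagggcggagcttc
In MMP10 the AP-1 letters begin 67 bases and the TATA letters 31 bases before the start, in XIRP1 the AP-1 letters begin 238 bases before it, and in RSPH9 the RFX letters begin 144 bases before it.

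The neural genes were the largest group, with 1164 KO and 42 control counts and a CPM ratio of 18.3 (13.5 to 25.6). PTPN5, the striatum-enriched tyrosine phosphatase that acts on synaptic kinases and receptors, had 38, 40, 42 and 35 KO counts against 1, 0, 1 and 0 control counts. It had 2.42 ± 0.367 CPM in KO libraries (SD, n = 4) and was even across them except for a higher sgRNA1 replicate 2. ELAVL3, a neuronal RNA-binding protein, had 15, 31, 25 and 17 KO counts and 1, 0, 1 and 1 control counts. SLC24A2, a potassium-dependent sodium and calcium exchanger of neurons and cones, had 18, 23, 18 and 19 KO counts and no control count. It stood at least 17.2-fold higher in KO, and its KO counts were nearly equal although the libraries differed in depth. SV2C, a synaptic vesicle protein, had 28, 16, 15 and 15 KO counts and 1, 0, 1 and 1 control counts.

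Of the other neural genes, 17 had mean KO levels of 0.36 to 0.939 CPM. PPP2R2B, a brain regulatory subunit of protein phosphatase 2A, had 0.939 ± 0.133 CPM and INSM2, a neuroendocrine zinc-finger factor, 0.923 ± 0.234 CPM in KO libraries. Receptors were HRH3 for histamine (0.772 ± 0.466 CPM), HCRTR2 for orexin (0.587 ± 0.231 CPM) and NMUR2 for neuromedin U (0.58 ± 0.162 CPM). Channel subunits were CACNA1A, the pore of P/Q-type calcium channels (0.474 ± 0.0792 CPM), and CACNG5, an auxiliary subunit of AMPA receptors (0.618 ± 0.151 CPM). The calcium-binding interneuron protein CALB2 had 0.621 ± 0.132 CPM and the synaptic adhesion protein LRRTM3 0.717 ± 0.131 CPM. HRH3 was the least even of these, with 28 of its KO counts in sgRNA2 replicate 1 against 10, 6 and 9 in the other KO libraries.

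The epithelial and organ genes had 798 KO and 24 control counts, a CPM ratio of 22.0 (14.7 to 34.5). MISP, an actin-binding protein of epithelial cells, had 25, 17, 35 and 22 KO counts and 0, 0, 2 and 1 control counts. MMP10, a secreted matrix metalloproteinase whose promoter held both AP-1 and TATA letters, had 34, 20, 30 and 8 KO counts and 0, 0, 2 and 0 control counts. MMP10 varied most of the 85 genes, with a ratio of 3.75 between its highest and lowest KO CPM, and its low library was sgRNA2 replicate 2. SCNN1G, the gamma subunit of the epithelial sodium channel of the kidney collecting duct, had 22, 15, 26 and 16 KO counts and a single count in control sgRNA2 replicate 1. Its level of 1.2 ± 0.141 CPM was even across the KO libraries. Secretory and metabolic genes included AGR2, a disulphide isomerase of mucus-secreting cells (0.986 ± 0.102 CPM), NR1H4, the bile acid receptor (0.947 ± 0.306 CPM), and PCK1, the key enzyme of gluconeogenesis (0.629 ± 0.243 CPM). PCK1 had 9, 13, 12 and 6 KO counts and 0, 0, 2 and 1 control counts.

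Of the set, 5 genes encode parts of the axoneme, the microtubule core of motile cilia and sperm tails, or assemble it, and had 301 KO and 12 control counts. DNALI1, an inner dynein arm light intermediate chain, had 21, 33, 51 and 18 KO counts and 1, 1, 0 and 1 control counts. ROPN1L, a protein of the radial spokes, had 22, 14, 19 and 14 KO counts and 1 control count. DNAI1, an intermediate chain of the outer dynein arm, had 13, 14, 15 and 8 KO counts and 0, 0, 1 and 2 control counts. DNAAF1, an assembly factor of dynein arms, and RSPH9, a radial spoke head protein, had fewer reads, at 0.526 ± 0.131 and 0.377 ± 0.0572 CPM in KO libraries. RSPH9 had 6 counts in each KO library and 0, 0, 2 and 1 control counts, close to both limits. Its promoter held the RFX letters, as did that of MISP, which is grouped outside the ciliary genes.

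Other axoneme genes, which were picked after the 5 were known, moved unevenly. Of 8 tested genes of the dynein arms that are not in the set, 7 were called higher in KO and 0 lower (edgeR, adjusted p under 0.05), beside 31.8% of all tested genes called higher and 31.2% lower. DNAH3, an inner arm heavy chain, rose most (log2 fold change 3.77 ± 0.20, SE, edgeR adjusted p = 3.28e-12), and DNAH2 was not called (0.19 ± 0.30). Of 7 tested radial spoke and central apparatus genes, 6 were called higher and 0 lower, with RSPH14 at 2.38 ± 0.49 and RSPH4A not called at 0.05 ± 0.11. Of 9 tested genes for dynein arm assembly 3 were called higher and 3 lower, with DNAAF2 lower at -0.37 ± 0.072. Some genes of these groups passed the filter only through their KO counts, such as RSPH14 with 48 KO and 6 control counts. Not tested were 4 dynein arm, 6 radial spoke and central apparatus and 2 assembly genes outside the set. These counts of called genes, and those of the list that follows, are therefore a description. In a list of airway and motile cilium genes, 8 of 12 tested were higher and 2 were lower. The 8 include DNAI1, whose call was set in advance by the rule. The lower ones were MCIDAS, a master regulator of multiciliated cells (-1.0 ± 0.13, edgeR adjusted p = 1.21e-06), and the p53 relative TP73 (-0.25 ± 0.067), while the airway secretory genes SCGB1A1, SCGB3A2, BPIFA1 and SFTPB were at 0 in all 8 libraries.

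The germline and embryo genes were led by KLF18, a Krüppel-like zinc-finger gene, with 26, 32, 53 and 27 KO counts and a single control count, in sgRNA2 replicate 1. Its CPM ratio of 91.3 was the largest among genes with a control count, with a counting interval of 16.1 to 3630, which a single count leaves wide. KLF17, its paralog 2680 bases away, had 18 KO counts and 1 control count and fell under the filter. The others were the testis profilin PFN4, the testis acyl-CoA synthetase ACSBG2, the embryonic stem cell factor ZSCAN10, ARL14EPL and the cancer-testis gene MAGEB6, at mean KO levels of 0.36 to 0.678 CPM. None of the 85 was in the lists of 55 germline and 32 cleavage-stage genes. Of the tested genes of those lists, 3 of 9 germline genes were higher and 3 lower, and 4 of 5 cleavage-stage genes were higher and 0 lower, beside 31.8% of all tested genes called higher and 31.2% lower. The germline counts are near those shares. Some of the tested cleavage-stage genes passed the filter only through their KO counts, such as ALPG with 201 KO and 6 control counts. CCNA1, with 231 KO and 15 control counts, was another, so the cleavage-stage counts are a description.

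Sensory genes had few reads, at 0.393 to 0.656 CPM in KO libraries. They included the cold and menthol channel TRPM8, the olfactory channel subunit CNGA4, the taste G protein subunit GNG13, the photoreceptor proteins CABP4 and PPEF2, and TSPEAR. TRPM8 had 6, 17, 8 and 9 KO counts and no control count, and stood at least 8.82-fold higher. GNG13 had 7, 5, 5 and 8 KO counts and no control count, at least 5.51-fold higher, the smallest such bound in the set. Each KO library held 2.86 to 4.38 CPM over the 7 genes together, so none of these genes alone is measured with precision.

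Immune genes were OASL, an interferon-induced protein, IL12B, a subunit of the cytokines IL-12 and IL-23, the lymphoid chemokine receptor CCR7, the adhesion protein ICAM1, the interferon-induced GTPase GBP2 and the chemokine CCL2. OASL had 13, 14, 22 and 5 KO counts and no control count. CCR7 had 8, 10, 9 and 8 KO counts and 1 control count, even across the KO libraries. Of 42 genes in a leukocyte list only 7 were tested, of which 6 were called higher in KO and 0 lower, beside 31.8% and 31.2% of all tested genes. The summed level of the list was 60.0 to 73.9 CPM in KO and 15.3 to 23.0 CPM in control libraries. CXCR4, a chemokine receptor not confined to leukocytes, made up most of that sum with 41.0 ± 4.24 CPM in KO and 10.0 ± 1.32 CPM in control libraries. Of the defining markers, PTPRC (CD45) had 7 KO counts and 2 control counts, and 9 genes, CD3D, CD8B, MS4A1, CD163, AIF1, HLA-DRA, GZMA, ELANE and S100A12, were at 0 in all 8 libraries.

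Muscle, bone and limb genes included TBX4, a T-box factor of the hindlimb and lung, with 19, 22, 24 and 20 KO counts and 2, 0, 1 and 0 control counts. XIRP1, an actin-binding protein of striated muscle with AP-1 letters far upstream, had 11, 6, 19 and 11 KO counts and 1 control count, in sgRNA2 replicate 2. SOST, the osteocyte inhibitor of Wnt signalling, had 5, 12, 17 and 9 KO counts and no control count, at least 9.48-fold higher. TBX4 was even across KO libraries and SOST was not. RYR3, an intracellular calcium release channel, and WFIKKN2, a myostatin-binding protein, had 0.469 ± 0.101 and 0.405 ± 0.0774 CPM in KO libraries.

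Coding genes outside these groups included G0S2, an inhibitor of the lipase that releases fatty acids from stored fat, with 21, 24, 11 and 16 KO counts and 0, 0, 1 and 1 control counts. GADD45G, a stress-inducible growth arrest gene, had 21, 10, 15 and 16 KO counts and 1, 0, 2 and 0 control counts. KRTAP19-3, a hair keratin-associated protein, had 7, 5, 8 and 6 KO counts and was the steadiest gene, with a ratio of 1.13 between its highest and lowest KO CPM. It had no control count, and reads of its close family copies could have been shared.

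**Figure D3:**
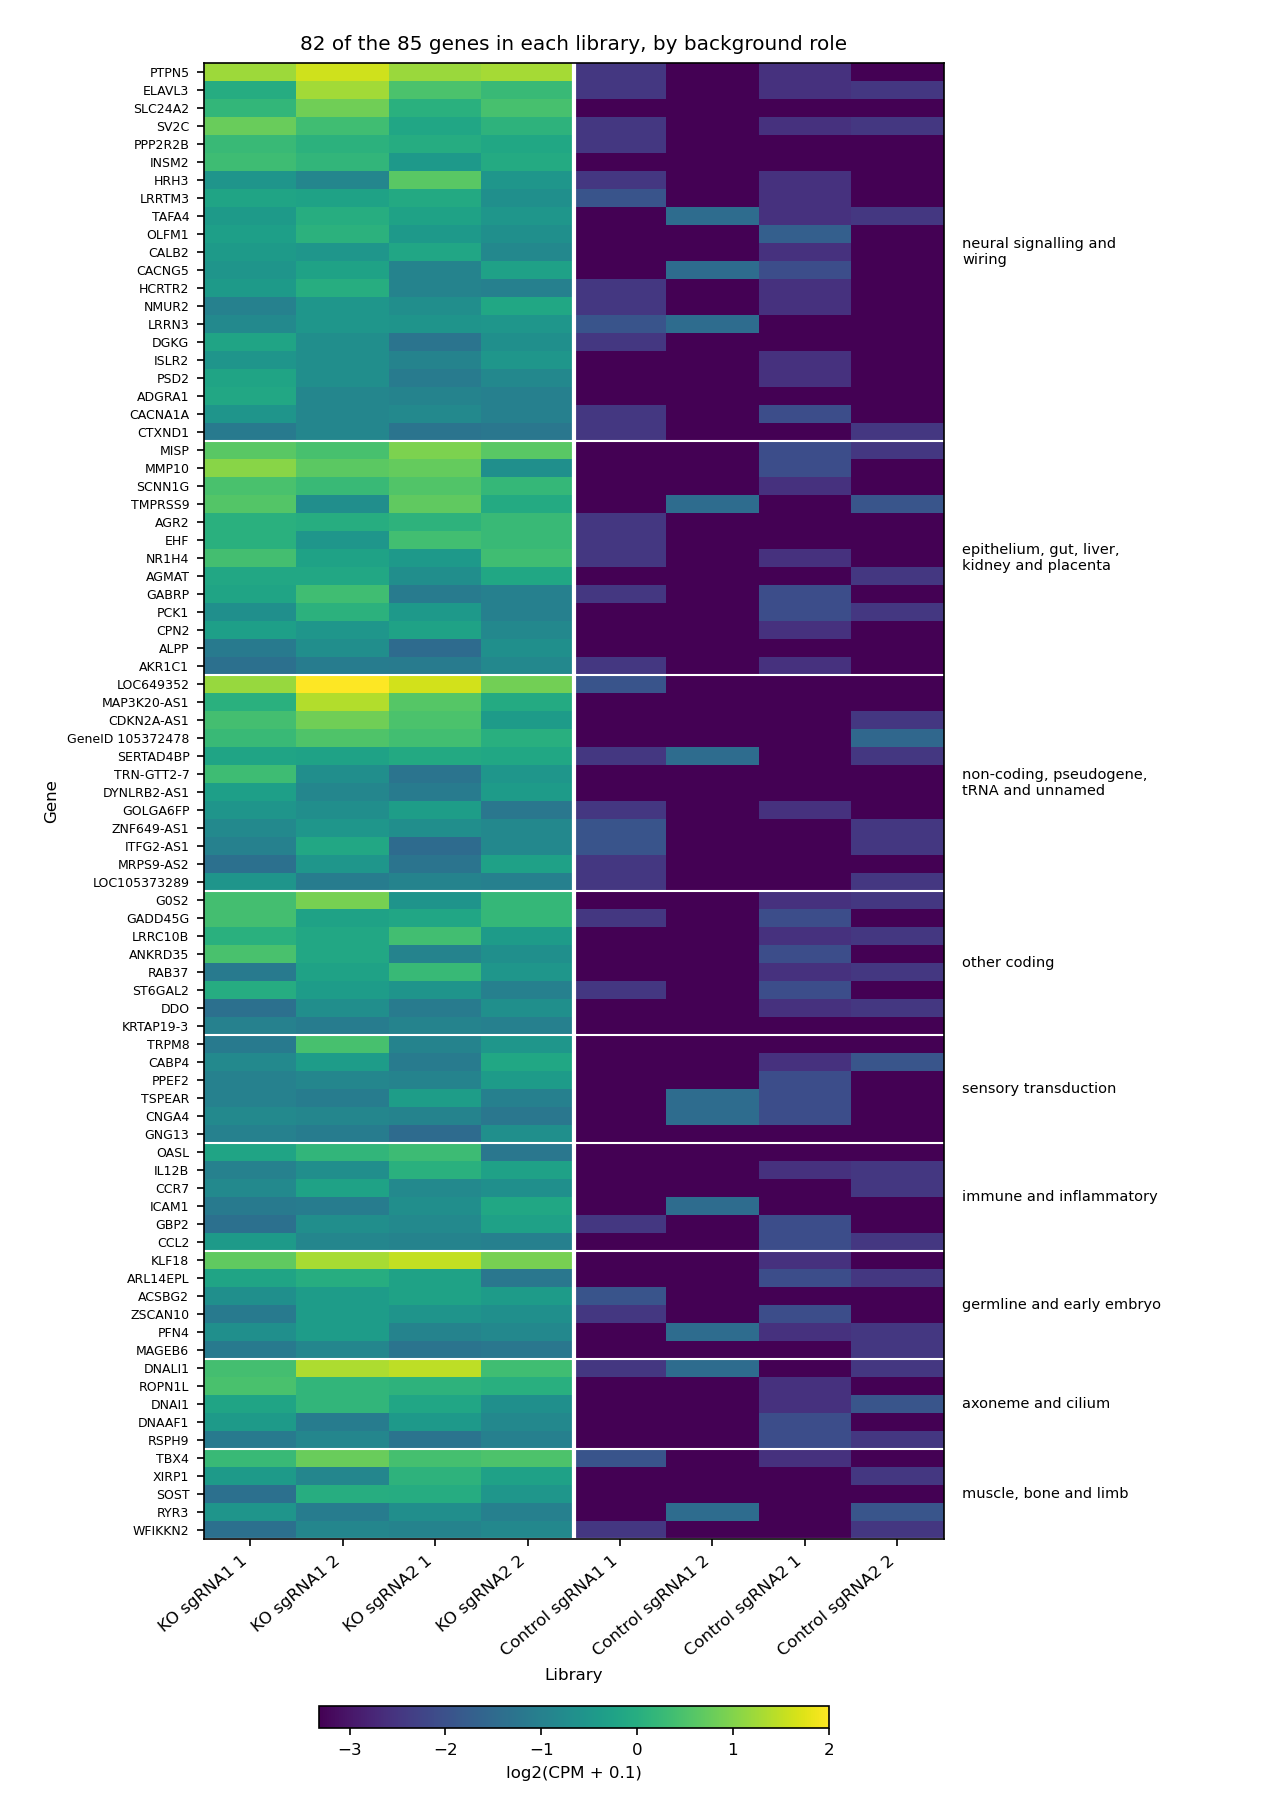
Level of 82 of the 85 genes (rows, grouped by background role and ordered by mean KO level) in the 4 KO libraries (left) and the 4 control libraries (right of the white line), as log2(CPM + 0.1). Control tiles are dark at 0 counts, a single count shows brightest in control sgRNA1 replicate 2 because that library was shallowest, and KO tiles reach 4.6 CPM in LOC649352.

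The non-coding and pseudogene entries included the entry with the most reads of the set. LOC649352 had 37, 62, 58 and 26 KO counts and 2, 0, 0 and 0 control counts, or 2.88 ± 1.27 CPM in KO libraries, and lay within FAM66A, which had 12 KO and 5 control counts. MAP3K20-AS1 had 16, 34, 27 and 13 KO counts and no control count, at least 19.8-fold higher, the largest such bound in the set. GeneID 105372478 had 19, 18, 23 and 14 KO counts, and its 3 control counts all fell in sgRNA2 replicate 2. CDKN2A-AS1 had 21, 23, 25 and 10 KO counts and 1 control count.

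Genes on the other strand of the antisense entries went in different directions. CDKN2A, the locus of the p16 and ARF cell cycle inhibitors, was lower in KO (log2 fold change -0.33 ± 0.045, SE, edgeR adjusted p = 2.69e-06). MAP3K20 was not called (-0.10 ± 0.043, edgeR adjusted p = 0.0567), and ITFG2 (0.17 ± 0.079) and MRPS9 (0.05 ± 0.045) were not called either. ZNF649 was lower (-0.59 ± 0.052), and its exons cover 53.2% of the exonic bases of ZNF649-AS1 on the opposite strand. DYNLRB2, a dynein light chain gene that overlaps DYNLRB2-AS1, was higher (1.98 ± 0.48, edgeR adjusted p = 0.00115). The strand setting of the counting is not given in the sources used here, so reads of such partners cannot be assigned with certainty. Of the 80 genes found in GENCODE v29, 0 shared 20% or more of their exonic bases with another gene on the same strand and 4 did so on the other strand, namely ZNF649-AS1, RSPH9 (23.0%), ICAM1 (22.0%) and ALPP (20.6%).

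Per kilobase of gene length, the order of KO levels was different. The 74-base TRN-GTT2-7 led with 8.77 CPM per kilobase, followed by LOC649352 with 5.5 and CDKN2A-AS1 with 1.99. G0S2 had 1.2, DYNLRB2-AS1 0.962, GADD45G 0.894, ZNF649-AS1 0.882, ITFG2-AS1 0.854 and KRTAP19-3 0.807 CPM per kilobase. PTPN5, second by CPM, had 0.585 CPM per kilobase. Transfer RNA genes have near-identical copies and no poly(A) tail, so the 42 KO counts of TRN-GTT2-7 (20, 7, 6 and 9, with no control count) are uncertain in their origin. GOLGA6FP, LOC649352, MAGEB6, ALPP and AKR1C1 belong to families of close copies and carry the same doubt.

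The rule did not use the contrast between the guides, but its limit of 5 counts in each KO library removed genes with low counts under 1 guide, such as HAVCR1. How many of the 85 genes differ between guides is therefore partly set by the rule, and their values are a description. Of the 85 genes, 40 passed the filter on low counts, which depends on the KO level, and 0 of them were called between KO sgRNA2 and KO sgRNA1 (edgeR), as were 0 of 14455 genes in all (0%). Unadjusted p-values under 0.05 were reached by 3 of the 40 and by 613 of all tested genes (4.24%). The median log2 fold change, sgRNA2 over sgRNA1, was -0.18 for the 40 and 26 of them were below 0, where 49.9% of all tested genes were below 0. Their range was -1.3 to 0.87 with a median SE of 0.41, against a median SE of 0.093 for all genes, so differences of the size of 2-fold could be missed here. GABRP, a GABA receptor subunit of epithelia, had 7 and 6 counts with KO sgRNA2 and 13 and 16 with KO sgRNA1 (log2 fold change -1.30 ± 0.50, SE, edgeR adjusted p = 0.993). DESeq2 and edgeR without a filter tested 85 of the genes, called 0, and had 0 and 4 with an unadjusted p under 0.05.

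**Figure D4:**
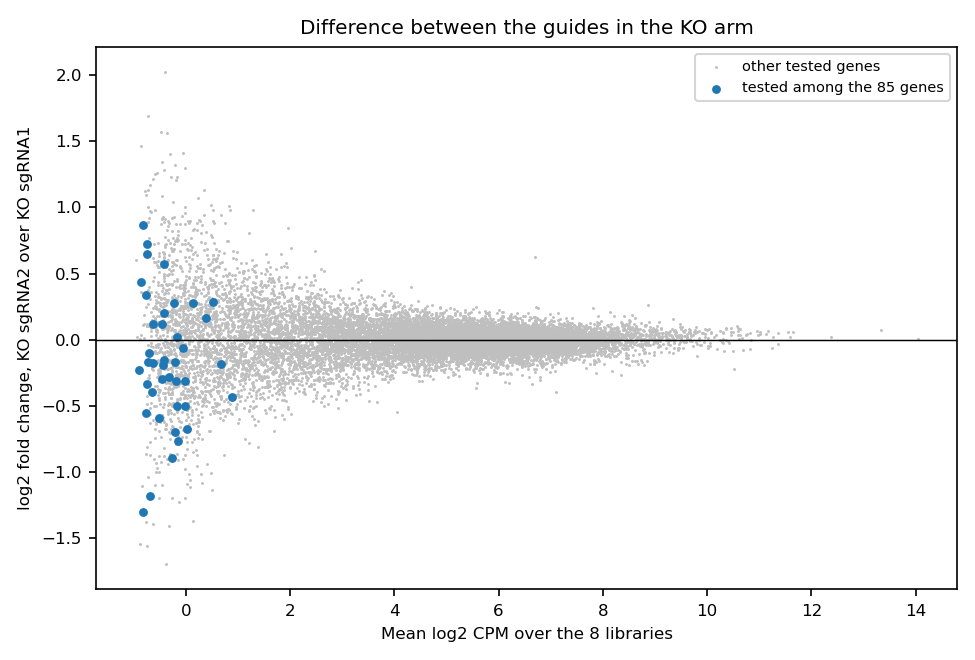
log2 fold change between KO sgRNA2 and KO sgRNA1 (y axis) against mean log2 CPM over the 8 libraries (x axis) for 14455 tested genes, with the 40 tested among the 85 genes in blue. The blue points sit at the low end of the level range, between -1.3 and 0.87, where grey points spread as widely.

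Within the KO arm the libraries ranked the genes without a fixed order. The ratio of highest to lowest KO CPM had a median of 1.91, was under 2 for 47 genes and over 4 for 0. KO sgRNA1 replicate 2 was highest for 29 of the genes and KO sgRNA2 replicate 2 lowest for 28. The limit of 5 counts is 0.371 CPM in KO sgRNA1 replicate 2, the shallowest KO library, and 0.261 CPM in KO sgRNA2 replicate 1. These ranks are therefore partly set by the rule. In the control arm a count was found for 33 and 11 of the genes with sgRNA1 and for 48 and 32 with sgRNA2, the fewest in the shallowest library.

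Neighbouring genes were measured independently of the rule. The nearest counted genes on either side of the 85 that are not in the set numbered 168, at a median distance of 30576.5 bases, and 97 of them were tested. Of these, 35 were called higher in KO (36.1%) and 25 lower (25.8%), against 31.8% and 31.2% of all tested genes, with a median log2 fold change of 0.02. At least 2-fold higher were 10 (10.3%), against 8.38% of all tested genes. For gaps under 10 kb, 9 of 34 tested neighbours were higher (26.5%) and 10 lower. For neighbours upstream on the same strand, 9 of 25 were higher (36.0%) and 6 lower, and for those within 10 kb 3 of 11 were higher. Of 46 genes whose bodies overlap one of the 85, 19 were tested, and 2 of them were higher (10.5%) and 6 lower (31.6%).

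A few loci held larger changes, picked out after their values were seen. LRRC15 lies 3920 bases upstream of CPN2, the carrier subunit of carboxypeptidase N, on the same strand, with 293 KO and 4 control counts (log2 fold change 5.45 ± 0.36, SE, edgeR adjusted p = 6.65e-11). CPN2 itself had 12, 8, 14 and 7 KO counts and 1 control count. ETV5, an ETS factor 38111 bases from the diacylglycerol kinase DGKG, had 22.1 ± 2.37 CPM in KO and 2.11 ± 0.96 CPM in control libraries (3.21 ± 0.16). LAMB3, a laminin chain 22986 bases from G0S2, had 6.39 ± 0.935 CPM in KO and 1.19 ± 0.346 CPM in control libraries (2.40 ± 0.21). XIRP1 was flanked by higher genes on both sides, CSRNP1 (1.54 ± 0.12) and CX3CR1 (1.07 ± 0.38). Around other genes with many reads the neighbours went the other way or were silent: MISP lay 108 bases from PALM, which was lower (-0.66 ± 0.059), MAP3K20-AS1 lay beside CDCA7 (-0.80 ± 0.042), and MRGPRX1, upstream of PTPN5, was at 0 in all libraries.

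**Figure D5:**
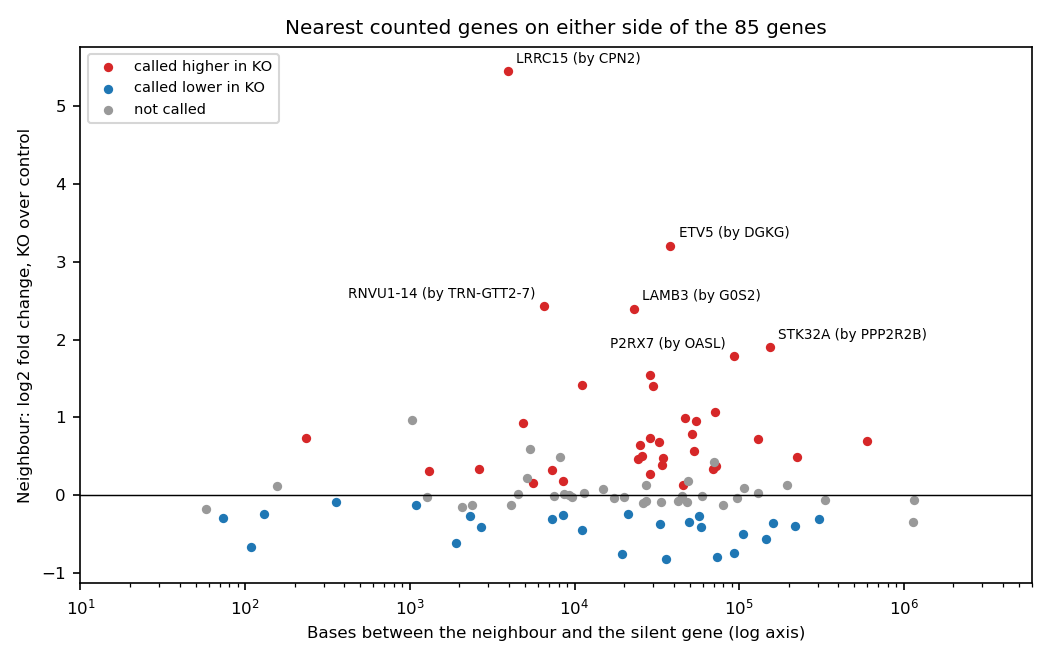
log2 fold change of KO over control (y axis) of the 97 tested nearest neighbours against their distance in bases from the silent gene (x axis, log scale), coloured by the edgeR call at an adjusted p under 0.05. The 35 higher and 25 lower neighbours occur at short and long distances, and LRRC15 beside CPN2 stands highest at 5.45.

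Paralogs next to genes of the set also had few control counts. ALPG, the germ cell alkaline phosphatase beside placental ALPP, had 3.09 ± 0.673 CPM in KO and 0.21 ± 0.221 CPM in control libraries (log2 fold change 4.33 ± 0.38, SE, edgeR adjusted p = 3.95e-09). ALPP had 6, 7, 5 and 8 KO counts and no control count, and its reads could be shared with ALPG. AKR1C2 beside AKR1C1 had 40 KO and 4 control counts, SCNN1B beside SCNN1G had 22 KO and 2 control counts, and CCL7 beside CCL2 had 10 KO counts and no control count. These 3 fell under the filter, so their differences have no test.

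Across 15 lists of tissue genes with 597 entries, 381 listed genes had a summed control count of 3 or less and 1.57% of these were among the 85, close to the 1.47% of all silent coding genes. The 6 genes were XIRP1, ELAVL3, PCK1, CCR7, SOST and DNAI1, each from another list, and 9 lists held none. The counts of called genes below stand beside 31.8% of all tested genes called higher and 31.2% lower. The rule chose ELAVL3, XIRP1 and SOST on the same counts, so their calls were set in advance. Some other list genes passed the filter only through their KO counts, such as SCRT1 with 357 KO and 6 control counts. The counts of called list genes are therefore a description. In the neuroendocrine and neural list, 20 of 25 tested genes were higher, ELAVL3 included, and 2 lower. In the striated muscle list, 11 of 17 were higher, XIRP1 included, and 0 lower. In the cartilage, bone and tooth list, 6 of 12 were higher, SOST included, and 1 lower. Among steroidogenic and gonadal genes 4 of 7 were called lower and 0 higher. The pluripotency list had 3 of 4 lower and 1 higher. In 5 of the other lists no tested gene was lower: 3 of 9 retina and lens genes, 4 of 5 squamous epithelium genes, 5 of 6 placental genes, 3 of 5 erythroid and platelet genes and 4 of 14 endothelial and fibroblast genes were higher. The shares of the retina and of the endothelial list are near those of all tested genes. Of 4 tested liver and gut genes 2 were higher and 1 lower. On counts thinned to the smallest library, genes called higher numbered 11 in the neural list, 5 in the muscle list and 3 in the bone list.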

How the data were processed

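The authors deposited 1 table of raw gene counts per library, with no normalisation, and featureCounts was run on hg38, per the submitters' processing notes. Libraries were stranded TruSeq mRNA, read as 80-base paired ends. Neither aligner, annotation release nor strand setting is given in the sources used. Of 28395 entries, 459 without a gene ID (0.0284 to 0.0425% of counts) were left out, and symbols and positions came from RefSeq on GRCh38.p14.

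The gene set, the tissue lists and the groupings were chosen with earlier results of these data known. KO was compared with control, with a guide term, and KO sgRNA2 with KO sgRNA1, in a model of 4 group means, by edgeR 4.0.16 (quasi-likelihood F test, two-sided, TMM scaling, filterByExpr with minimum count 10 and total 15, 14455 genes). Benjamini-Hochberg adjustment ran over the tested genes, with calls at an adjusted p under 0.05. The deposited counts were also tested with DESeq2 1.42.0, other filters, thinned counts and each library left out. Fits were tested on simulated data.

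Genes were named by rule: the 15 with the highest KO CPM, the 6 next per kilobase, those nearest each limit, list members and the nearest neighbours of the first; other genes named as examples were chosen after their values were seen. CPM ratios carry exact 95% counting intervals. Exon overlap used GENCODE v29. By name, 3 of the 85 genes are not reported here; counts and sums over the set include them.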

Additional observations from a re-analysis of the deposited data

Results flagged for a closer look

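In 7 of the 85 genes 1 KO library stood apart from the other 3 by a gap past Dixon's 95% limit for 4 values, and chance flags about 1 in 20 such groups. Of the 7, 3 stood out in KO sgRNA2 replicate 1. There HRH3 had 1.46 CPM, against 0.445, 0.584 and 0.596 CPM in the other KO libraries, and TSPEAR had 0.679 CPM, against 0.371, 0.397 and 0.409 CPM. AGMAT, the liver and kidney agmatinase, was low there at 0.523 CPM, against 0.794, 0.816 and 0.817 CPM. In KO sgRNA1 replicate 1, ADGRA1 was high at 0.817 CPM, against 0.397, 0.418 and 0.445 CPM, and LRRN3 was low at 0.467 CPM, against 0.575, 0.594 and 0.596 CPM. PTPN5 was high in KO sgRNA1 replicate 2 at 2.97 CPM, against 2.19, 2.22 and 2.32 CPM, and PPEF2 was high in KO sgRNA2 replicate 2 at 0.662 CPM, against 0.409, 0.418 and 0.445 CPM. No library was apart in all of these, and the values that stood apart rest on 8 to 40 counts.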

How the results depend on the processing

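The number of genes chosen depends on the limits. It was 12 with a summed control count of 0, 185 with 6 or less, 24 with 10 or more counts in each KO library, 215 with 3 or more, 45 on thinned counts and 172 with 5 or more counts in any 3 KO libraries, the last chosen after seeing the data. Leaving out 1 library gave 92 to 159, with 128 without control sgRNA1 replicate 1, 159 without control sgRNA2 replicate 1 and 141 without control sgRNA2 replicate 2, since fewer control libraries make the limit easier to meet. With the arms exchanged it was 0, also in the other 2 forms tried, both chosen after seeing the data. Between the guides, genes called numbered 11 without a filter and 0 to 13 leaving out 1 library, 13 without KO sgRNA2 replicate 1 and 1 without KO sgRNA1 replicate 2, and the cause was not tested. None of 16 fits called any of the 85 (smallest adjusted p 0.562). For KO against control, 3211 to 4777 genes were higher and 3279 to 4859 lower over the alternatives, and 24 to 39 neighbours were higher and 17 to 27 lower. Of 539 fold changes of the tested genes, 472 stayed within 1 SD, 67 moved by more and 0 reversed. Of 450 counts of called list genes, 403 stayed within 1.5 times and 47 moved by more. Replicate numbers did not pair the libraries (correlations of -0.0531 to 0.0276), and with them as a replicate block 4528 genes were higher and 4453 lower, with 0 called between guides. Single genes rest on few counts, so folds against 0 to 3 control counts are wide.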
